A study of Mus musculus with 4 samples.

Results

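The genes described here are 3 early growth response factors (Egr1, Egr2 and Egr3), the 2 corepressors that bind them (Nab1 and Nab2) and the 3 NR4A nuclear receptors (Nr4a1, Nr4a2 and Nr4a3). They are 8 of the 22865 gene symbols in the count table, all 8 were found by symbol, and 7 of them passed the filter on low counts, Egr2 being the exception. Egr1 was selected on its difference between the genotypes in these same libraries, and the other members were chosen by family or by known association with it. All values of the contrast between genotypes are therefore given for these genes as a description, with no test. RNA came from lung γδ T cells of female C57Bl/6 mice, 10 weeks of age and either Aire-/- or Aire+/+, with 2 libraries per genotype and 500 cells per library. Aire is the transcriptional regulator with which medullary thymic epithelium displays tissue antigens to developing T cells. The sort took viable cells carrying CD45 and the γδ receptor but not TCRβ, CD27 or the γ chains Vg1, 2, 4 and 5. How the Aire-/- allele was made and whether libraries came from separate or pooled animals is not given in the sources used here, so the spread between libraries may be technical.

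EGR proteins are zinc finger transcription factors whose genes are switched on early after antigen receptor engagement. Egr1 is switched on within minutes, mainly through Ras, ERK and the serum response factor. NAB proteins bind a shared domain of EGR factors and repress transcription at their targets, and Nab2 is itself induced by EGR factors, so that the pair forms a feedback loop. NR4A receptors are orphan nuclear receptors induced by the same receptors, largely through calcium, calcineurin and MEF2 factors. Nr4a1, also known as Nur77, is widely used as a reporter of recent antigen receptor signals. In γδ T cells, EGR factors downstream of the receptor raise Id3 and take part in the choice of the γδ lineage.

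The upstream sequences of the most abundant member (Nr4a1), of the member that varied most between libraries of the same genotype among the abundant ones (Nr4a2) and of the least abundant (Egr2) are shown for their response elements. Each is the 250 bases before an annotated start, from RefSeq on GRCm38.p6, 5′ to 3′ along the gene's strand. RefSeq windows of 6 of the 8 genes were searched. Egr1 and Egr3 were not among them, so nothing is said of their upstream sequences. Capitals mark the core TGACG of the cAMP response element on either strand, the EGR site GCGGGGGCG on either strand, the MEF2 box and the CArG box of serum response factor. None of the capital stretches overlap. The windows lie at chr15:101266596-101266845 (plus strand, Nr4a1), chr2:57124004-57124253 (minus strand, Nr4a2) and chr10:67537619-67537868 (plus strand, 1 of 5 Egr2 windows).
Nr4a1: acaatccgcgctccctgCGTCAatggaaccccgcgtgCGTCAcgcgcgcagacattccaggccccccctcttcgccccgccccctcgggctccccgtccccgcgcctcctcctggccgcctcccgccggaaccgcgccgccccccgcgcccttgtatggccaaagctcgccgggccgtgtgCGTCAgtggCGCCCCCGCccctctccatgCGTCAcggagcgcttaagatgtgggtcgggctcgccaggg
Nr4a2: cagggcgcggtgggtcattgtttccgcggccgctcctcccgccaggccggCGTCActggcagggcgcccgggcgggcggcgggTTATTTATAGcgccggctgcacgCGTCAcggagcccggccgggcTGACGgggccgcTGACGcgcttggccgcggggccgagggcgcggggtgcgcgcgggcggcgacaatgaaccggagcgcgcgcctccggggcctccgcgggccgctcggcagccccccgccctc
Egr2: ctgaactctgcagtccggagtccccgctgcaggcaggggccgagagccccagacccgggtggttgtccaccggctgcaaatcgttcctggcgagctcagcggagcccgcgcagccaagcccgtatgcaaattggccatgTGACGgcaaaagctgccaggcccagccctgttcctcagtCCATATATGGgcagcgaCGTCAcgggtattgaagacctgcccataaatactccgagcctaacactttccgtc

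The core TGACG stood at 4 positions in the Nr4a1 window, at 4 in that of Nr4a2 and at 4 in that of Nr4a3, and 17.8% of all 32851 RefSeq windows of this length held it at least once. The Nr4a1 window also held the EGR site GCGGGGGCG on the opposite strand, 52 to 60 bases before the start, a match found in 2.57% of windows. The Nr4a2 window held a MEF2 box 158 to 167 bases before the start, against 2.92% of windows. The Egr2 window held a CArG box 63 to 72 bases before the start, against 1.47% of windows, and 2 copies of TGACG. The Nab1 window (not printed) held the EGR site GCGTGGGCG at 2 positions, against 0.536% of windows, and GCGGGGGCG at 1, but 231 of its 250 bases are annotated as exon, as are 152 of those of Nr4a3. The Nab2 window and the most upstream Egr2 window, which starts at 67535249, held 0 matches to any motif searched. The NR4A monomer site AAAGGTCA, present in 1.34% of windows, was in 0 of the 10 windows searched for these genes. A match is a description of letters and not evidence of binding.

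Library depth was 1106891 to 1265239 counts, and 16283 to 17423 genes had a count. Aire itself had 0 counts in all 4 libraries, so it checks no genotype label. Libraries of the same genotype differed beyond sampling noise (chi-square over its degrees of freedom 4.1 in Aire-/- and 4 in Aire+/+). Levels are given as CPM, the count scaled to a common total of tested genes with TMM factors (a correction for differences in composition between libraries). Transcripts of other cells were present. All 11 B cell markers lay below 0 in log2 fold change, with summed levels of 3046 and 2336 CPM in Aire-/- against 4793 and 3022 CPM in Aire+/+ libraries. All 14 markers of γδ T17 cells lay above 0, with sums of 8457 and 9366 against 5682 and 7968 CPM. Transcripts of this list were thus present in every library, but the list includes CD3 chains, which other T cells share. Cell types cannot be separated in a bulk library, and fewer cells of a type and less RNA per cell cannot be told apart.

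Egr1 was low in both Aire-/- libraries and several-fold higher in both Aire+/+ libraries, while the NR4A genes and both NAB genes stood at overlapping levels in the 2 genotypes. Egr3 lay between these cases, with a smaller difference, and Egr2 was too scarce to place. Of the 7 members that passed the filter, edgeR's quasi-likelihood test called 0 at an adjusted p under 0.05, where it called 0.0204% of all 9783 genes tested. At an unadjusted p under 0.05 it counted 1, Egr1, where 5.57% of all genes did so, and DESeq2 and limma-voom each called 0 at an adjusted p under 0.05. Both Aire-/- libraries lay below both Aire+/+ libraries for 2 of the 7 members, Egr1 and Egr3, and above them for 0, where 17.3% and 17.1% of all tested genes did so. These counts include the gene that was selected on this contrast, so nothing is read from them.

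**Figure D1:**
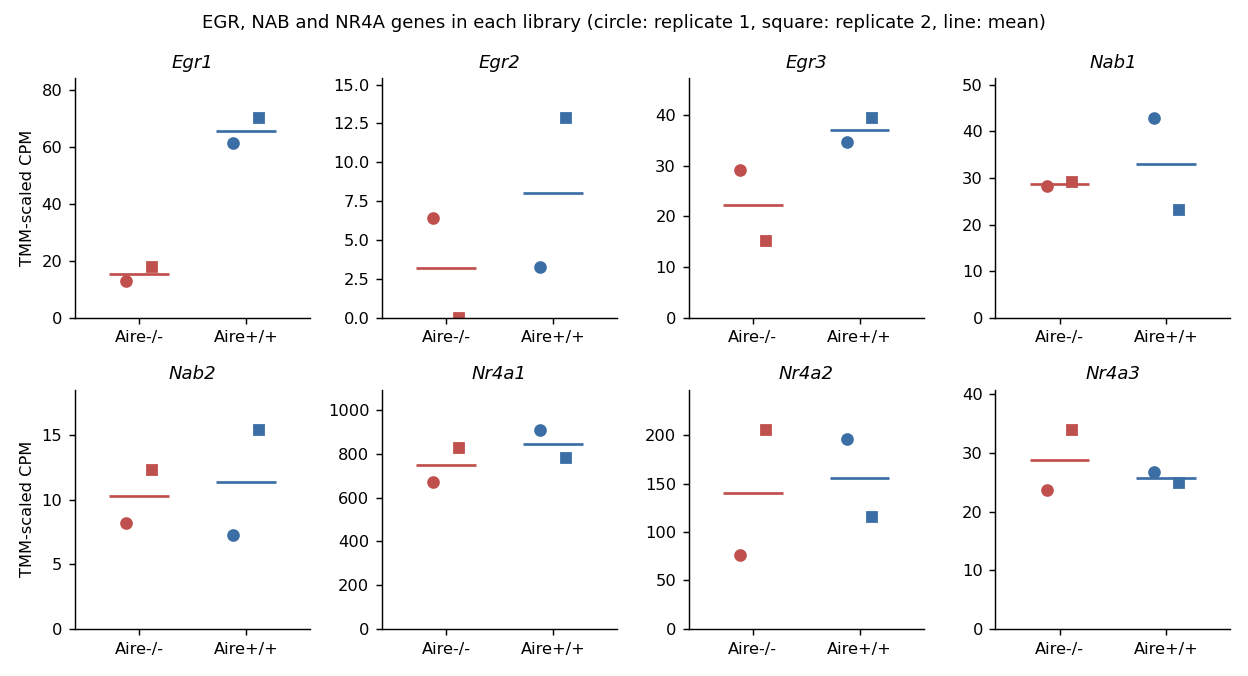
Level of each of the 8 genes in each library, in TMM-scaled CPM on linear axes that start at 0, with a panel per gene. Circles are replicate 1, squares replicate 2 and lines the mean of the 2 libraries. Egr1 stands at 12.8 and 17.9 CPM in Aire-/- against 61.4 and 70.2 CPM in Aire+/+ libraries, whereas the points of Nr4a1, Nr4a2, Nr4a3, Nab1, Nab2 and Egr2 overlap between genotypes.

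Egr1 (ENSMUSG00000038418, chromosome 18, 34859823 to 34864984 on the plus strand, GRCm38) is the founding member of the family and has 2 exons. It had 14 and 19 counts in Aire-/- against 76 and 82 in Aire+/+ libraries. In CPM these were 12.8 and 17.9 against 61.4 and 70.2, or 15.3 ± 3.63 against 65.8 ± 6.18 (SD, n = 2 each). The groups did not overlap, and the library pair nearest to each other still differed 3.43-fold, the farthest 5.49-fold. The fitted log2 fold change, Aire-/- minus Aire+/+, was -2.09 (SE 0.36). The Aire+/+ to Aire-/- ratio of summed counts, scaled to library size, was 4.29 (exact 95% interval 2.93 to 6.45, for counting error alone). Within a genotype the libraries differed by no more than counting allows, with ratios of replicate 2 to replicate 1 of 1.4 (0.666 to 3.02) in Aire-/- and 1.14 (0.826 to 1.58) in Aire+/+.

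Egr3 (ENSMUSG00000033730, chromosome 14, 70077203 to 70082614, plus strand), a family member tied to early γδ T cell development, had 32 and 16 counts in Aire-/- against 43 and 46 in Aire+/+ libraries. Its levels were 22.2 ± 10.0 against 37.1 ± 3.26 CPM (SD, n = 2 each), a log2 fold change of -0.73 (SE 0.41). The groups did not overlap, but Aire-/- replicate 1 at 29.2 CPM lay close to Aire+/+ replicate 1 at 34.8 CPM, a 1.19-fold gap. The Aire-/- libraries themselves differed, replicate 2 being at 0.516 of replicate 1 (counting interval 0.265 to 0.969). Without Aire-/- replicate 1 the log2 fold change was -1.28, and without Aire-/- replicate 2 it was -0.34.

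Egr2 (ENSMUSG00000037868, chromosome 10, 67535475 to 67542188, plus strand), a factor linked to peripheral tolerance, had 7 and 0 counts in Aire-/- against 4 and 15 in Aire+/+ libraries. In the library with 0 counts, up to 3 counts or 2.83 CPM are allowed. The genotypes overlapped, and the ratio of summed counts, 2.43 to Aire+/+, had a counting interval of 0.979 to 6.84. Egr4, the remaining relative, had 0 counts in all 4 libraries. Neither gene was tested.

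The make-up of EGR counts does not depend on how libraries are scaled. Egr1 gave 26.4% of the summed Egr1, Egr2 and Egr3 counts in Aire-/- replicate 1 (14 of 53, Wilson 95% interval 16.4 to 39.6%) and 54.3% in Aire-/- replicate 2 (19 of 35, 38.2 to 69.5%). It gave 61.8% (76 of 123, 53.0 to 69.9%) and 57.3% (82 of 143, 49.1 to 65.2%) in the Aire+/+ libraries. The Egr1 share of Aire-/- replicate 1 lay below the counting intervals of both Aire+/+ libraries and that of Aire-/- replicate 2 lay within them, but the intervals of the Aire-/- libraries overlapped each other. Egr3 gave 60.4% and 45.7% of EGR counts in Aire-/- against 35% and 32.2% in Aire+/+ libraries, and Egr2 gave 13.2% and 0% against 3.25% and 10.5%. The summed level of the 3 genes was 48.4 and 33.0 CPM in Aire-/- against 99.4 and 122 CPM in Aire+/+ libraries. Without Egr1 it was 35.6 and 15.1 against 38.0 and 52.2 CPM, and Egr3 gave most of this sum. These groups did not overlap, an order found for 17.3% of all tested genes. Aire-/- replicate 1 at 35.6 CPM lay close to Aire+/+ replicate 1 at 38.0 CPM.

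**Figure D2:**
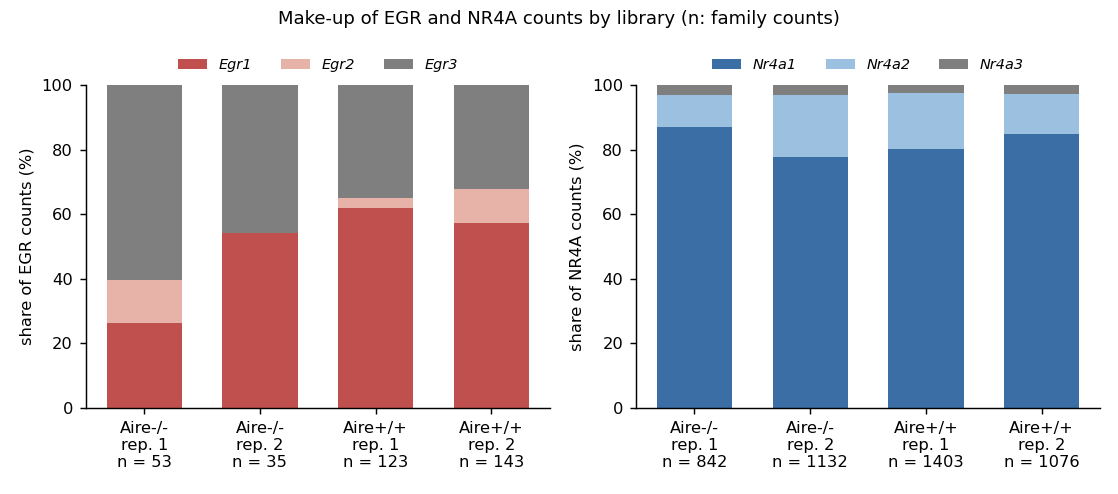
Share of EGR counts (left) and of NR4A counts (right) given by each family member in each library, as stacked bars in percent, with the number of family counts under each bar. Egr1 takes 26.4% of EGR counts in Aire-/- replicate 1 and 54.3 to 61.8% in the other libraries, while Nr4a1 takes 77.6 to 87.1% of NR4A counts.

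For both NAB corepressors the genotypes overlapped. Nab1 (chromosome 1, 52457294 to 52500679, minus strand) had 31 and 31 counts in Aire-/- against 53 and 27 in Aire+/+ libraries, or 28.8 ± 0.65 against 33.0 ± 14.0 CPM (SD, n = 2 each; log2 fold change -0.20, SE 0.40). Its highest and lowest values were both in Aire+/+ libraries, and without Aire+/+ replicate 1 the log2 fold change turned to 0.31. Nab2 (chromosome 10, 127660918 to 127668568, minus strand), itself a target of EGR factors, had 9 and 13 counts in Aire-/- against 9 and 18 in Aire+/+ libraries, or 10.2 ± 2.86 against 11.3 ± 5.75 CPM (log2 fold change -0.14, SE 0.64). The value was 0.12 without Aire-/- replicate 1 and 0.48 without Aire+/+ replicate 2, but -0.46 without Aire-/- replicate 2 and -0.59 without Aire+/+ replicate 1. Nab2 overlaps 3 genes on the opposite strand, by 40 bases with Stat6, 1646 with Gm16229 and 1668 with Nemp1, and reads from these cannot be told apart if strand was not used in counting. No other member overlaps an annotated gene.

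Nr4a1 (ENSMUSG00000023034, chromosome 15, 101254269 to 101274795, plus strand) was by far the most abundant of the 8, at rank 110 of all genes by mean CPM. It had 733 and 878 counts in Aire-/- against 1127 and 912 in Aire+/+ libraries, or 749 ± 112 against 846 ± 92.2 CPM (SD, n = 2 each). The log2 fold change was -0.18 (SE 0.18), and the genotypes overlapped, with Aire-/- replicate 2 at 828 CPM above Aire+/+ replicate 2 at 780 CPM. The value ran from -0.02 without Aire-/- replicate 1 and -0.07 without Aire+/+ replicate 1 to -0.28 without Aire+/+ replicate 2 and -0.34 without Aire-/- replicate 2. It was -0.46 with CD3 chain counts as library size, a scaling that moved the median of all genes to -0.24. At this depth libraries of the same genotype differed by more than counting error, replicate 2 being at 1.24 of replicate 1 in Aire-/- (1.12 to 1.37) and 0.857 in Aire+/+ (0.784 to 0.936). The ratio of summed counts between genotypes, 1.13 to Aire+/+ (1.06 to 1.21), was no larger than that spread.

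Nr4a2 (chromosome 2, 57106830 to 57124003, minus strand), known as Nurr1, had 83 and 218 counts in Aire-/- against 243 and 135 in Aire+/+ libraries. Its levels were 75.8 and 206 CPM against 196 and 116 CPM, so each genotype held a high and a low library. Aire-/- replicate 2 stood 2.71-fold above replicate 1 (counting interval 2.1 to 3.54), a wider gap than between the genotype means of 141 ± 91.7 and 156 ± 57.2 CPM (log2 fold change -0.15, SE 0.38). Leaving out 1 library moved the value from -1.04 (without Aire-/- replicate 2) to 0.40 (without Aire-/- replicate 1), with 0.28 without Aire+/+ replicate 1 and -0.48 without Aire+/+ replicate 2. Nr4a3 (chromosome 4, 48045153 to 48086447, plus strand), or NOR1, had 26 and 36 counts in Aire-/- against 33 and 29 in Aire+/+ libraries, at 28.9 ± 7.21 against 25.7 ± 1.31 CPM (log2 fold change 0.16, SE 0.39). That value was -0.12 without Aire-/- replicate 2 and -0.09 when CD3 chain counts served as library size.

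Nr4a1 made up most of the NR4A counts in every library. It gave 87.1% and 77.6% of NR4A counts in Aire-/- against 80.3% and 84.8% in Aire+/+ libraries, and Nr4a3 gave 2.35 to 3.18%. The shares of Nr4a1 and Nr4a2 differed between libraries of the same genotype beyond the counting intervals, 9.86% of NR4A counts being Nr4a2 in Aire-/- replicate 1 (8.02 to 12.1%) and 19.3% in Aire-/- replicate 2 (17.1 to 21.7%). NR4A genes gave 85.1 to 93.5% of the counts of all 8 genes. EGR genes gave 5.67% and 2.89% of them in Aire-/- against 7.75% and 11.3% in Aire+/+ libraries. That difference includes Egr1, the gene selected on this contrast. Egr2 and Egr3 alone gave 4.17% and 1.32% of the counts of all 8 genes against 2.96% and 4.83%. These shares overlap, although the summed CPM of Egr2 and Egr3, given above, did not.

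Per kilobase of the longest coding transcript, Nr4a1 stood at 312 CPM per kb on average (262 to 357 over the 4 libraries) and Nr4a2 at 41.6 (21.2 to 57.6), and these ranges overlapped neither each other nor those of the other members. Egr1 followed at 9.05 CPM per kb (2.85 to 15.6), then Nab1 at 7.97 (5.96 to 11.1), Egr3 at 7.51 (3.83 to 9.99), Nr4a3 at 4.77 (4.15 to 5.94), Nab2 at 4.18 (2.82 to 5.96) and Egr2 at 1.89 (0 to 4.33). From Egr1 downward each range overlapped the next, so neighbours among these 6 are not resolved. The range of Egr1 spans the contrast on which it was selected, 2.85 and 4.0 in Aire-/- against 13.7 and 15.6 in Aire+/+ libraries. Nab1 stood at 7.3 and 7.5 against 11.1 and 5.96. The order was the same in CPM without division by length. Of the 4460 windows of 25 bases in the Egr1 transcript 0 recur in another member, and at most 0.86% do so in any of the 8, but how reads were assigned to genes was not tested.

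**Figure D3:**
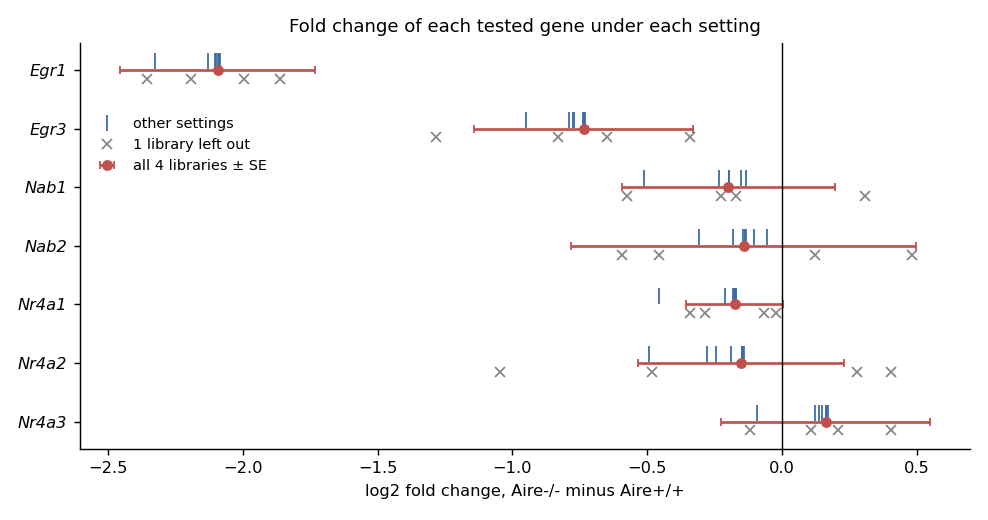
Log2 fold change (Aire-/- minus Aire+/+, x axis) of the 7 genes that passed the filter, with all 4 libraries (red, bars are the SE), with 1 library left out (grey crosses) and under other settings (blue ticks). Egr1 keeps between -2.36 and -1.86 and Egr3 between -1.28 and -0.34, whereas Nab1, Nab2, Nr4a2 and Nr4a3 have values on both sides of 0.

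Markers of other cells were set beside Egr1. The B cell sums given above overlapped between genotypes, and Egr1 stood at 4.2 and 7.67 counts per 1000 B cell marker counts in Aire-/- against 12.8 and 23.2 in Aire+/+ libraries. The 7 plasma cell markers, of which 4 of 6 tested lay below 0, summed to 440 and 592 against 1889 and 1312 CPM and did not overlap. Per 1000 of their counts Egr1 stood at 29.0 and 30.3 against 32.5 and 53.5, a narrower gap than in CPM. The 12 dendritic cell markers include class II genes that B cells share. The 12 summed to 5731 and 4679 against 11160 and 6984 CPM, with 4 of 5 tested below 0. The 12 macrophage and monocyte markers found summed to 1218 and 1495 against 1531 and 1241 CPM and overlapped, with 6 of 7 tested below 0. Endothelial markers summed to 121 and 117 against 146 and 196 CPM, lung epithelial markers to 10.4 to 31.5 CPM and mast cell markers to 4.71 to 15.4 CPM, each lower in both Aire-/- libraries. Sums of natural killer, αβ T cell, neutrophil and fibroblast markers overlapped between genotypes, and Klra8, Klra4 and the mast cell gene Tpsb2 were at 0 in all libraries. The part of these cells in the Egr1 values was not tested. Against the CD3 chains, Egr1 stood at 9.2 and 11.9 counts per 1000 CD3 counts in Aire-/- against 61.2 and 45.8 in Aire+/+ libraries, a wider gap than in CPM.

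The genes around these factors were taken from 8 lists of 97 genes in all, of which 78 were tested. In edgeR's test over all genes 0 of the 78 passed at an adjusted p under 0.05, and DESeq2 and limma-voom also called 0. At an unadjusted p under 0.05 edgeR counted 6 higher and 1 lower in Aire-/- libraries, the lower one being Dusp2, where 274 of the 9783 genes tested were higher and 271 lower (5.57% in all). The median log2 fold change of the 78 genes was 0.11, against 0.01 for all tested genes.

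In the relay that feeds Egr1, from Ras through ERK to serum response factor, 6 of 14 tested genes lay above 0 and the median was -0.07. Nras, a Ras protein, stood at 133 ± 8.16 against 184 ± 22.1 CPM (SD, n = 2 each), a log2 fold change of -0.46 (SE 0.22) with adjusted p = 0.91 in edgeR. Braf, the kinase that Ras recruits, stood at 68.7 ± 4.17 against 51.9 ± 4.37 CPM (0.40, adjusted p = 0.94, edgeR). In the calcineurin, NFAT and MEF2 relay toward NR4A genes 6 of 13 lay above 0, with a median of -0.11. Its smallest p values belonged to Mef2c (-0.45), which B cells also express, Camk4, a calcium-dependent kinase (0.33), and Hdac7, a deacetylase that represses Nr4a1 (0.43), with adjusted p of 0.92 to 0.95 in edgeR. Partners of these proteins had overlapping groups: Chd4, the remodeller that NAB proteins recruit, at 0.23, and the retinoid X receptors Rxrb at -0.25 and Rxra at -0.18, with adjusted p of 0.97 to 0.99 in edgeR.

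Genes placed under EGR control in lymphocytes lay above 0 for 6 of 11 tested members, with a median of 0.02. Fasl, the death ligand, had 4 and 35 counts in Aire-/- against 51 and 38 in Aire+/+ libraries (log2 fold change -1.01, SE 0.63, adjusted p = 0.93, edgeR). Its low value came from Aire-/- replicate 1 alone. Without Aire-/- replicate 2 the log2 fold change of Fasl was -3.30. Socs1, a brake on cytokine signalling, stood at 11.2 ± 2.88 against 18.8 ± 3.7 CPM (-0.74, adjusted p = 0.94), and Tnf at 75.2 ± 1.69 against 55.1 ± 11.6 CPM (0.45, adjusted p = 0.94). Id3, which was picked for its role and with its values known, had 13 and 12 against 24 and 15 counts (-0.47, adjusted p = 0.98, edgeR). Among genes placed under or beside NR4A factors in T cells 3 of 7 lay above 0. Pdcd1, the inhibitory receptor PD-1, was abundant at 838 ± 110 against 616 ± 196 CPM (0.44, adjusted p = 0.91), Tox, a factor of chronically stimulated T cells, stood at 183 ± 33.3 against 134 ± 15.4 CPM (0.45, adjusted p = 0.91), and Havcr2, the receptor TIM-3, at 18.4 ± 14.0 against 31.7 ± 4.81 CPM (-0.77, adjusted p = 0.94, edgeR).

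Among the inhibitors that switch ERK signalling off, 3 of 5 tested genes lay above 0. Dusp2, a nuclear ERK phosphatase, had 17 and 14 counts in Aire-/- against 41 and 34 in Aire+/+ libraries, or 14.4 ± 1.65 against 31.1 ± 2.86 CPM (SD, n = 2 each). On the log2 scale the difference was -1.11 (SE 0.42), with an adjusted p = 0.89 in edgeR. Its groups did not overlap, as for Egr1. Dusp1 lay the other way, at 192 ± 101 against 89.9 ± 53.4 CPM (1.09, SE 0.40, adjusted p = 0.89), with overlapping groups, and Dusp4 stood at 40.7 ± 29.1 against 26.3 ± 13.0 CPM (0.62, adjusted p = 0.95). Dusp1 passed the threshold without Aire-/- replicate 1 (1.55), without Aire+/+ replicate 1 (1.87) and with no filter (1.10).

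Other immediate early genes stood mostly on the opposite side from Egr1. Of 25 tested, 20 were above 0 and the median was 0.37 on the log2 scale, against 4981 of 9783 above 0 and a median of 0.01 over all tested genes. With CD3 chain counts as library size, which moved the median of all genes to -0.24, the median of these 25 was 0.11. The genes with the smallest p were Rgs1, a brake on chemokine receptor signalling, at 568 ± 199 against 298 ± 105 CPM (0.93, SE 0.28), Bhlhe40, a repressor induced by activation, at 391 ± 116 against 222 ± 50.1 CPM (0.81), and the stress gene Gadd45b at 143 ± 43.2 against 82.5 ± 28.4 CPM (0.79), with adjusted p of 0.82 to 0.89 in edgeR. Rgs1 passed the threshold without Aire-/- replicate 2 (1.25), without Aire+/+ replicate 2 (1.34) and with no filter (0.93), and Bhlhe40 without Aire+/+ replicate 2 (1.06). Whether the fold change of Egr1 differs from those of these genes was not tested.

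**Figure D4:**
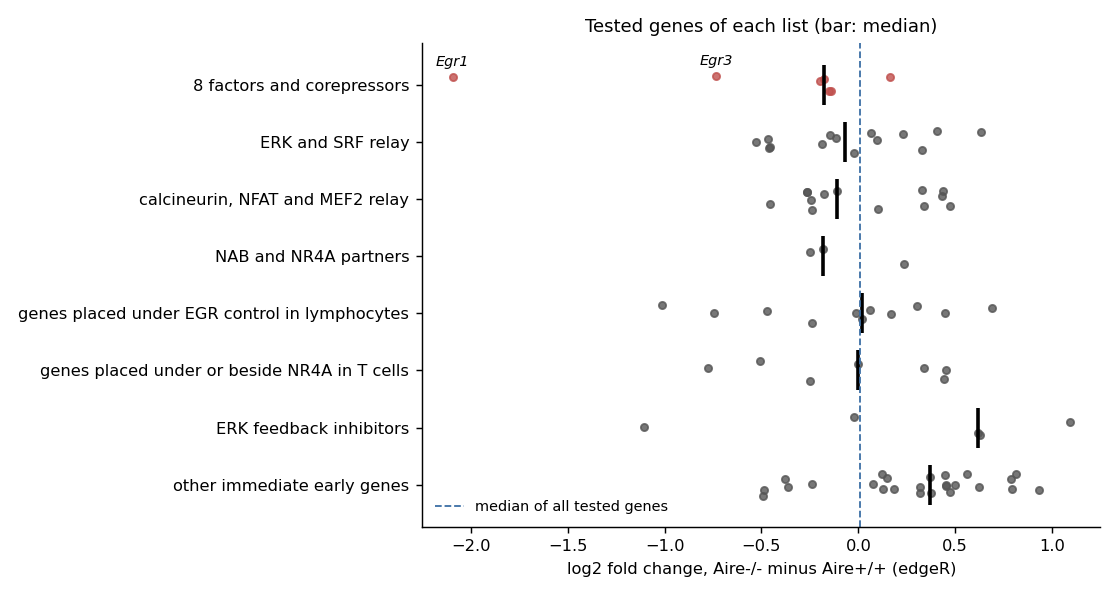
Log2 fold change (Aire-/- minus Aire+/+, x axis) of each tested gene, a row per list, with the list's median as a black bar and the median of all tested genes as a dashed line. Egr1, which was selected on this contrast, lies at -2.09, so nothing is read from its place relative to the lists. The genes of the 7 other lists shown run from -1.11 to 1.09, and the immediate early genes have a median of 0.37.

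The spread within genotypes had a shape of its own in several of these genes, a pattern picked after the values were seen. Nr4a2, Nr4a1, Dusp1, Dusp4 and the AP-1 gene Junb were each higher in Aire-/- replicate 2 than in replicate 1 and higher in Aire+/+ replicate 1 than in replicate 2. Junb was the most variable of them, at 728 and 2624 CPM in Aire-/- against 1429 and 506 CPM in Aire+/+ libraries. Gadd45b, Nr4a3 and Nab1 had the same order, and Rgs1, Egr2 and Egr3 the reverse. For Nr4a3 the counting intervals of both ratios of replicate 2 to replicate 1 include 1, as does that of Nab1 in Aire-/- libraries. Bhlhe40 and Nab2 followed the order of Nr4a2 only in Aire-/- libraries, and Dusp2 only in Aire+/+ libraries. The share of all genes with this order was not counted. Junb passed the threshold without Aire-/- replicate 1 (1.45), without Aire+/+ replicate 1 (1.72) and with no filter (0.80), each higher in Aire-/-. For Egr1 the order within genotypes is not resolved, since both of its ratios of replicate 2 to replicate 1 have counting intervals that include 1.

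Likeness between genes was measured as the Euclidean distance between log2 CPM values centred on each gene's mean over the 4 libraries. The genes outside the 8 nearest to Egr1 were Mtx2 (distance 0.24), Cpm (0.33), Smim8 (0.35), Mrc1 (0.44) and Trappc1 (0.59). Of these Cpm, a membrane carboxypeptidase, passed the test over all genes (log2 fold change -1.86, adjusted p = 0.017, edgeR), Mtx2 and Smim8 had at most 29 counts in a library, and Mrc1 is the mannose receptor of macrophages, with 2 and 3 against 13 and 12 counts. Because Egr1 was selected on its difference between genotypes, genes near it are those with a like difference, and the distances of its relatives restate their own smaller differences. Of its relatives Egr3 was the nearest: 704 of 9782 genes were nearer to it than Egr3 (distance 1.54), 2293 were nearer than Nr4a1 and 3606 nearer than Nr4a2. For Nab2 the number was 3722, for Nab1 4048 and for Nr4a3 5334. The genes nearest to Nr4a1 were Foxred1 (0.03), Mrps18a (0.04) and Rpgrip1 (0.04), all with log2 fold changes between -0.22 and -0.16. With 4 libraries such distances describe these libraries only.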

How the data were processed

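The deposited values are raw counts, whole numbers for each gene symbol and library, in 1 table made by the authors, per the file headers. The submitters' processing notes name TopHat2 2.0.10, Cufflinks 2.2.1 and mm10 without role or order. No counting tool, annotation, strand setting or duplicate handling was given in the sources used here. Libraries were made with Smart-Seq2, per the labels' protocols. Reads carry no molecular identifiers, so counts are of reads and not of molecules. Intervals cover the counting error of reads only and may be too narrow for that of molecules.

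The test was edgeR 4.0.16's quasi-likelihood F test (R 4.3.3) on genotype alone, after TMM scaling and filterByExpr with 10 as the minimum count and 15 as the minimum total, with Benjamini-Hochberg adjustment over 9783 genes at 0.05. The SE is approximate, the size of the log2 fold change over the root of F. Log2 CPM used a prior count of 2. Depths are given in the report. Alternatives used DESeq2 1.42.0, limma 3.58.1 (voom), other size factors and filters, the replicate block and each library left out. Fits were tested on simulated data. Positions, lengths and overlaps came from GENCODE M21 and upstream sequences from RefSeq, both on GRCm38, the assembly that mm10 names. Intervals of ratios are exact conditional binomial ones, those of shares are Wilson.

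The members and the gene lists were chosen with earlier results of these data known. The named genes are the 8 members, up to 3 genes with the smallest p per list, and the 5 and 3 genes nearest to Egr1 and Nr4a1. Id3 and Junb were added after their values were seen. A gene that this rule names is not reported here, although it is counted in its list. Calculations in Python 3.11.15 used scipy 1.17.1, numpy 2.4.6, matplotlib 3.10.9 and pandas 2.3.3.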

Additional observations from a re-analysis of the deposited data

How the results depend on the processing

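Genes called over all genes numbered 2 in the main analysis, 7 with CD3 chain counts as library size, 1 with limma-voom, 47 with no filter and 6 with the replicate block, and from 12 to 63 with 1 library left out. The members called numbered 0 in the main analysis. Egr1 was the 1 member called with CD3 chain counts as library size, with no filter and in the fits that left out Aire-/- replicate 2 or either of the Aire+/+ libraries, and the range with 1 library left out was 0 to 1. Genes of the pathway lists called numbered 3 with no filter (Dusp1, Junb and Rgs1) and 2 without each library in turn, against 0. The causes were not tested. In fits without 1 library, the lone library is assumed to vary like the other genotype's pair. Of 12 alternatives the log2 fold changes of Egr1, Egr3 and Nr4a1 kept their sign in 12, that of Nab1 in 11 and those of Nab2, Nr4a2 and Nr4a3 in 10. The median of the ERK feedback inhibitors was -0.004 with no filter, where genes that are not tested otherwise enter, and reached 0.91 without Aire+/+ replicate 1.

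The replicate numbers are not said to mark a shared animal or day, and same-numbered libraries did not deviate together (correlation -0.077 across 9783 genes, which are not independent). With the replicate block, 6 genes were called. Precision was limited by depth for Egr2, Nab2 and Egr4, whose counts were 0 to 18 per library.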
